A study of Mus musculus with 24 samples.

Results

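The 7 genes followed were Smchd1 and the 6 heterochromatin genes grouped with it here as its partners, which are 4933421E11Rik (Lrif1), Cbx1, Cbx3, Cbx5, Setdb1 and Trim28. They were taken by symbol from 2 tables of 37310 gene entries each, in which every symbol had 1 entry, and all 7 members passed the filter on low values in both tables. SMCHD1 is a non-canonical protein of the SMC family that keeps genes silent on the inactive X chromosome and in clustered and imprinted loci. LRIF1, known from human cells as a ligand that binds both SMCHD1 and HP1, links SMCHD1 to chromatin that carries H3K9 methylation. HP1 proteins read this mark, SETDB1 writes it, and TRIM28 is the corepressor that brings SETDB1 and HP1 to sites bound by KRAB zinc finger proteins, which in embryonic stem (ES) cells silences endogenous retroviruses.

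The samples were mouse ES cells grown without feeders in serum with LIF, of 6 genotypes with 3 biological replicates each: a knockout of Smchd1 and Dux together (Double KO), of Smchd1 alone (Smchd1 KO) and of Dux alone (Dux KO), wild type (WT), and, in the second table, the Tet knockout with that of Smchd1 added (quad KO) and the Tet knockout without it (Tet TKO, by common usage a triple knockout of the Tet dioxygenase genes). Smchd1 was thus lost in 3 backgrounds, each with its own reference: Smchd1 KO against WT, Double KO against Dux KO, and quad KO against Tet TKO, where both groups carry the Tet knockout. The labels do not say which part of a gene was changed or whether a line is 1 clone. Libraries were made from total RNA after removal of ribosomal RNA.

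Values are in CPM, as deposited, which are reads scaled to an effective library size, and the 2 tables were scaled on their own, so no level was compared across them. Libraries of the first table held 11400000 to 74448000 reads in genes and the others 27325000 to 34590000 reads, and the lowest count behind any value of the 7 genes was 344 reads. The replicates of WT and of Tet TKO lay as close to each other as repeat runs of a library, with a noise ratio (squared difference over counting error) of 1.35 to 2.37 in WT and 1.46 to 1.77 in Tet TKO, where runs of 1 WT sample gave 1.65 to 2.01. The ratio was 20.2 to 38.8 in Double KO, 18.7 to 37.6 in Dux KO and 4.11 to 12.6 in quad KO. The submitters call the replicates biological, with RNA isolated from each, but nothing says that they are separate cultures, so p-values measure the spread between these samples. In 4 samples (Smchd1 KO replicate 2, Dux KO replicates 2 and 3 and Double KO replicate 3), the median gene of at least 1 autosome lay more than 0.4 log2 from WT. The marker genes of ES cells summed to 2175 to 3590 CPM in Double KO, 3604 to 4311 CPM in Smchd1 KO, 3062 to 3720 CPM in Dux KO and 3897 to 3979 CPM in WT. In the second table they summed to 2538 to 2690 CPM in quad KO and 3403 to 3474 CPM in Tet TKO. Differences between genotypes were tested with limma on log2(CPM + 0.5) over all 16200 or 14920 genes that passed the filter, with Benjamini-Hochberg adjustment and a threshold of 0.05. Errors beside CPM values are SD over 3 samples.

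Per kilobase of annotated exon, which allows levels of different genes to be set side by side, Trim28 was the most abundant member in WT at 336 ± 10.1 CPM per kb. Cbx5 followed at 124 ± 2.28 CPM per kb, Cbx1 at 84.1 ± 0.483 CPM per kb and Setdb1 at 21.96 ± 0.153 CPM per kb. Cbx3, Smchd1 and Lrif1 were the lowest, at 11.6 ± 0.235, 10.3 ± 0.114 and 3.13 ± 0.146 CPM per kb. These 7 levels did not overlap between genes in WT. In Tet TKO, Trim28 again came first (418 ± 2.36 CPM per kb) and Lrif1 last (2.25 ± 0.157 CPM per kb), and Cbx1 (126 ± 1.81 CPM per kb) stood above Cbx5 (104 ± 1.55 CPM per kb). Exon length here is the union over all annotated transcripts, so a gene with a long, rarely used exon is set too low. The plot of levels by genotype shows all 7 genes.

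**Figure D1:**
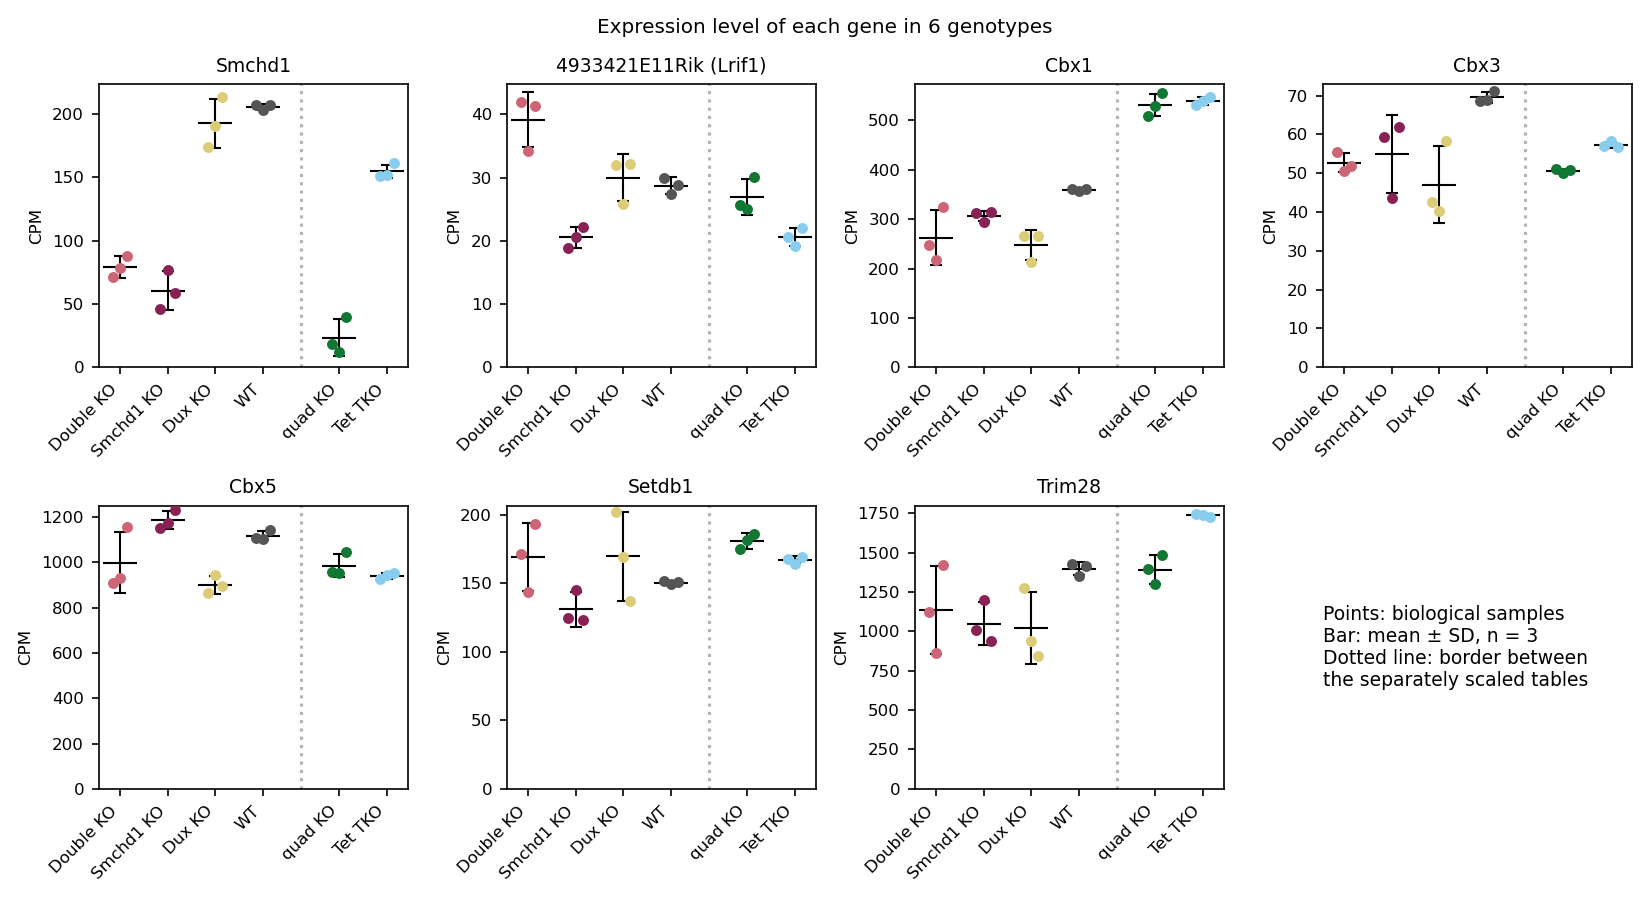
Level in CPM of the 7 genes (linear axes from 0) in each biological sample of the 6 genotypes, with mean and SD (n = 3); the dotted line parts the 2 tables, which were scaled separately. Smchd1 was low in the 3 genotypes that carry its knockout, and Lrif1 was highest in Double KO at 34.2 to 42.0 CPM and lowest within that table in Smchd1 KO at 18.9 to 22.1 CPM.

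Smchd1 itself, the targeted gene, was read first as a check of the labels. The 3 Smchd1 KO samples held 46.2, 76.5 and 58.5 CPM, against 207, 203 and 207 CPM in the WT samples. The Double KO samples held 71.0, 78.2 and 87.9 CPM, against 174, 191 and 213 CPM in the Dux KO samples. In the second table the quad KO samples held 18.1, 12.2 and 40.0 CPM, against 151, 152 and 161 CPM in the Tet TKO samples. Every sample with the knockout thus lay below every sample of its reference, and the transcript was reduced but present in all 9. What was left amounted to a mean of 29.4% of WT in Smchd1 KO, 41.0% of Dux KO in Double KO and 15.2% of Tet TKO in quad KO. The single samples ranged from 22.5% to 37.2%, from 36.9% to 45.6% and from 7.86% to 25.9%. These levels rest on 2808 to 4443 reads per Smchd1 KO sample, 1147 to 1479 per Double KO sample and 344 to 1115 per quad KO sample. Reads outside a deleted part would not report the knockout, and the labels do not give that part.

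On the log2 scale Smchd1 fell by 1.79 in Smchd1 KO (SE 0.16, 3.46-fold; limma, adjusted p = 0.000395) and by 2.87 in quad KO (SE 0.36, 7.31-fold; adjusted p = 0.000827). In Double KO it fell by 1.28 against Dux KO (SE 0.16, 2.43-fold; adjusted p = 0.0294). This last call was lost without Dux KO replicate 1 or 2 or Double KO replicate 1, at an adjusted p of 0.0959, 0.203 and 0.233, and in a limma fit to these 2 genotypes alone, at 0.366. Of all genes tested, 0.889% passed in Smchd1 KO against WT, 0.0123% in Double KO against Dux KO and 37.7% in quad KO against Tet TKO. Dux KO and WT did not differ in Smchd1 beyond their spread (174 to 213 CPM against 203 to 207 CPM, log2 difference -0.10, adjusted p = 0.727). The fall within the Dux-deficient pair was smaller than that within the WT pair by 0.51 log2 (95% confidence interval 0.01 to 1.00), which did not pass the test (adjusted p = 0.274), and Double KO stood 0.41 log2 above Smchd1 KO (interval 0.06 to 0.76, adjusted p = 0.144). Leaving out the 4 samples named above, both differences passed, at 0.76 (adjusted p = 0.0416, among 10.4% of all genes) and 0.51 (adjusted p = 0.0153, among 36.1%). The first of these then rests on 1 Dux KO sample, which is assumed to vary like the other groups.

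The promoter of Smchd1 is shown because this is the gene whose transcript set the groups apart, and those of Trim28 and Lrif1 because they are the partners with the clearest differences below. RefSeq promoters (build GRCm38.p6) matched all 7 genes, with 10 start sites, and each line gives the 250 bases before a start, 5′ to 3′ on the gene's strand. Capitals mark 3 motifs that were searched on both strands, the GC box GGGCGG, the ETS motif CCGGAAG and the CCAAT box CCAAT, none of which contains another. Among 32851 promoters of the table these letters occur in 32.7%, 6.91% and 33.8% of such windows. Smchd1 lies at chr17:71475344-71475593 on the minus strand, Trim28 at chr7:13023902-13024151 on the plus strand, and the 2 starts of Lrif1 at chr3:106684737-106684986 and chr3:106721432-106721681 on the plus strand.
Smchd1: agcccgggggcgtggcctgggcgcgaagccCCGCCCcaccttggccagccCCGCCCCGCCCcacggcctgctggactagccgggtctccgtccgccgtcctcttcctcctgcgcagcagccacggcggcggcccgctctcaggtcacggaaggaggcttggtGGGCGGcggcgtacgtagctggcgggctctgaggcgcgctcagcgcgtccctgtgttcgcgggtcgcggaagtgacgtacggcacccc
Trim28: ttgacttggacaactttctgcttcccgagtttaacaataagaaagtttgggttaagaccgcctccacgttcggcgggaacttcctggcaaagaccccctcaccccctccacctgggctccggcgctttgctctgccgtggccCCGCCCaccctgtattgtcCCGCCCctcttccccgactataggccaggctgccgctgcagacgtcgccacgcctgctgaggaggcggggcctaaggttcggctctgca
Lrif1, first start: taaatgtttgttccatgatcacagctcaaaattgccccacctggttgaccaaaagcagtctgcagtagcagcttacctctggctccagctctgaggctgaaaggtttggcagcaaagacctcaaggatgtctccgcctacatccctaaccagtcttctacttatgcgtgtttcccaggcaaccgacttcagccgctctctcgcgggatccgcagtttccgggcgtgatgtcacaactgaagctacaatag
Lrif1, second start: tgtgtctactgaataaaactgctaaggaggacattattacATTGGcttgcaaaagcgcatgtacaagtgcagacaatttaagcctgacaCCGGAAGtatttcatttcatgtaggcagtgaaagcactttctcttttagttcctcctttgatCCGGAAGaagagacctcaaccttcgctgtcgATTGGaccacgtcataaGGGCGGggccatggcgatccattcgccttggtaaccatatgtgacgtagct
The Smchd1 promoter holds 4 GC boxes and neither of the other motifs in this window, and Trim28 holds 2 GC boxes. The second start of Lrif1 holds 1 GC box, 2 ETS motifs and 2 CCAAT boxes, and the first holds none of the 3. In the 300 bases from 250 before to 50 after the start, Smchd1 has 40 CpG dinucleotides, more than 96.1% of the promoters in the table, against 23 for Trim28 and 10 and 12 for the starts of Lrif1, where the median promoter has 7. These letters describe the windows only, and no measurement here reads binding or methylation at them.

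Lrif1, the adaptor between SMCHD1 and HP1, was the partner that differed most between the genotypes of the first table. It stood at 42.0, 34.2 and 41.3 CPM in Double KO and at 18.9, 20.6 and 22.1 CPM in Smchd1 KO. In Dux KO it stood at 32.1, 25.8 and 32.2 CPM, and in WT at 30.01, 27.3 and 28.9 CPM. Double KO was thus above and Smchd1 KO below every sample of the other genotypes in that table, while Dux KO and WT overlapped. Lrif1 was 1.88-fold higher in Double KO than in Smchd1 KO (log2 difference 0.91, SE 0.14, adjusted p = 0.00407), where 4.38% of all genes passed and 1.40% of all genes rose. It was the single partner of 6 to pass there and the single one whose samples did not overlap, where 29.7% of all genes did not, and without Smchd1 KO replicate 1 its log2 difference was 0.85 and its adjusted p 0.0583.

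Neither step of that difference passed alone. Smchd1 KO against WT had a log2 difference of -0.48 in Lrif1 (SE 0.14, unadjusted p = 0.00417, adjusted p = 0.132), and Double KO against Dux KO had 0.38 (SE 0.14, unadjusted p = 0.0157, adjusted p = 0.371). The difference between the 2 effects, tested as an interaction, was 0.86 (SE 0.19), with an adjusted p of 0.0752 where 0.512% of all genes passed. It passed in DESeq2 at 0.87 (adjusted p = 0.00153), which called 5.85% of all genes. In limma it passed in 3 of the 12 fits that left out 1 replicate, and the adjusted p ran up to 0.242 over the 12. The 3 were without Dux KO replicate 1, Dux KO replicate 3 or Double KO replicate 2 (adjusted p = 0.0352, 0.0498 and 0.0178). These fits called 4.2%, 1.31% and 7.57% of all genes. Markers of 2-cell-like cells, rare cells of an ES culture that resemble the early embryo, moved with this contrast. The 6 marker genes summed to 0.0619 to 0.416 CPM in Double KO and 48.3 to 101 CPM in Smchd1 KO, and to 0.0 to 0.149 CPM in Dux KO and 10.5 to 12.4 CPM in WT. Usp17l5 was at 0 in all Double KO samples, and Zscan4c, Zscan4d, Zscan4f and Usp17l5 in all Dux KO samples. All 6 fell in Double KO against Smchd1 KO and in Dux KO against WT and rose in Smchd1 KO against WT, and their part in the Lrif1 result was not tested. Of all genes, 2.98% fell and 1.4% rose in Double KO against Smchd1 KO. In Dux KO against WT 2.35% of all genes fell, and in Smchd1 KO against WT 0.648% rose. Fibroblast markers summed to 31.3 to 57.4 CPM in Double KO, 29.7 to 58.1 CPM in Smchd1 KO, 11.8 to 34.6 CPM in Dux KO and 20.4 to 22.6 CPM in WT, with Lum at 0 in all samples of the 3 knockouts. Endoderm markers summed to 17.9 to 173 CPM in Double KO, 34.1 to 203 CPM in Smchd1 KO, 27.8 to 159 CPM in Dux KO and 72.8 to 77.8 CPM in WT. In Double KO against Smchd1 KO, Col3a1 was the 1 of 6 fibroblast markers tested that rose (3.31 ± 1.00 CPM in Double KO and 0.654 ± 0.463 CPM in Smchd1 KO, adjusted p = 0.0256) and Tdgf1 the 1 of 8 ES cell markers that fell (684 ± 198 CPM and 1322 ± 149 CPM, adjusted p = 0.0218). In Dux KO against WT the ES cell marker Utf1 fell (148 ± 36.6 CPM in Dux KO and 244 ± 1.28 CPM in WT, adjusted p = 0.0311). Each of these 3 calls was lost without any one of 3 or 4 of the 6 samples. The part of these markers in the results of this table was not tested.

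In the Tet knockout background Lrif1 rose. It stood at 25.6, 25.0 and 30.1 CPM in quad KO, against 20.7, 19.2 and 22.1 CPM in Tet TKO, with no overlap. The change was 1.29-fold (log2 difference 0.37, SE 0.09, adjusted p = 0.0151), where 17.1% of all genes rose and 20.6% fell. Without Tet TKO replicate 1 or 2 the adjusted p was 0.0585 and 0.0707. Of the 50-base words of Lrif1 transcripts, 10.6% also occur in the annotated gene Gm38253, which covers 11.6% of its exon bases on the same strand, so reads of the 2 cannot be fully told apart.

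**Figure D2:**
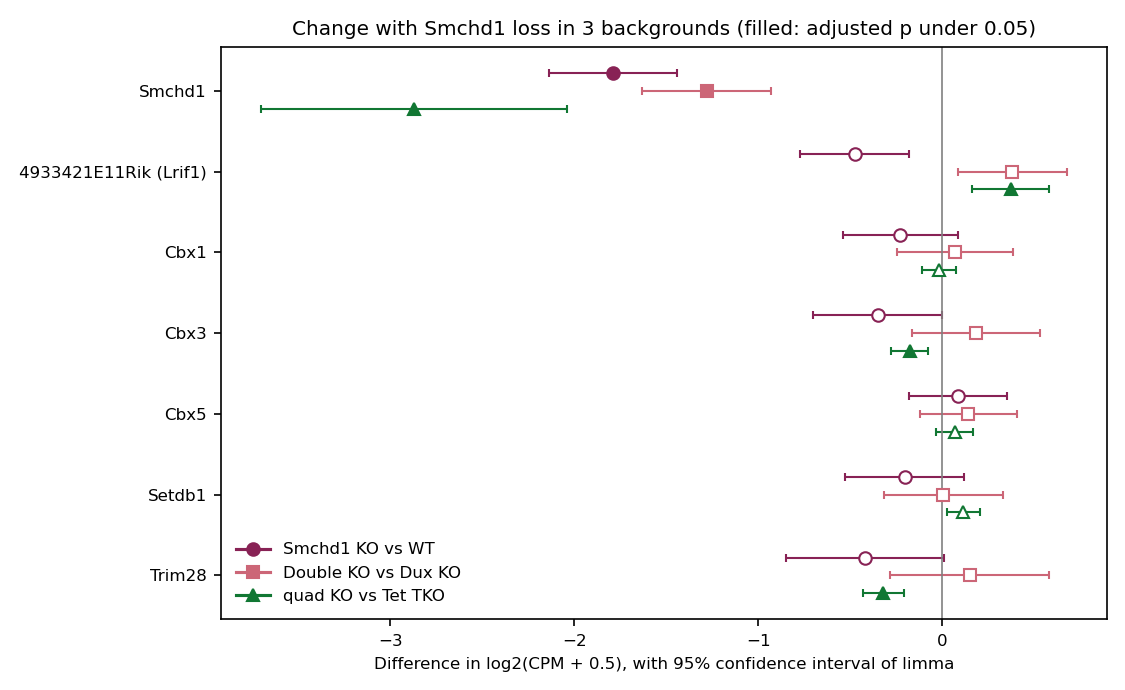
Difference in log2(CPM + 0.5) of the 7 genes, with the 95% confidence interval of limma, for Smchd1 KO against WT, Double KO against Dux KO and quad KO against Tet TKO (n = 3 per group); filled symbols passed the test. Smchd1 is negative in all 3, Lrif1 is -0.48 against WT and 0.38 and 0.37 in the other 2 backgrounds, and Trim28 passed in quad KO at -0.32.

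The 3 HP1 genes, Cbx1 (HP1 beta), Cbx3 (HP1 gamma) and Cbx5 (HP1 alpha), encode readers of H3K9 methylation of one design. To show how alike and how separable their transcripts are, the most similar 90 coding bases of the 3 genes are given, 5′ to 3′ from GENCODE transcripts (release 21), with capitals at the 29 positions that are not identical in all 3. They start at coding base 388 of 555 in Cbx1 (chromosome 11), 400 of 549 in Cbx3 (chromosome 6) and 400 of 573 in Cbx5 (chromosome 15).
Cbx1: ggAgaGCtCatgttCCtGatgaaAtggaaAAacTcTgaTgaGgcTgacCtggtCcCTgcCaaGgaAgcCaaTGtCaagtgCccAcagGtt
Cbx3: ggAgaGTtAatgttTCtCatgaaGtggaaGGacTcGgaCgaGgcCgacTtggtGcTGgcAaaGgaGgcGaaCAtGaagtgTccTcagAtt
Cbx5: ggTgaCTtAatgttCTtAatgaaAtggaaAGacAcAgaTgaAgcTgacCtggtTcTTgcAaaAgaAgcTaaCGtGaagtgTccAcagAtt
Even in this stretch 61 bases are shared, and over the whole coding sequence the pairs are 69.6% (Cbx1 and Cbx3), 67.0% (Cbx1 and Cbx5) and 64.1% (Cbx3 and Cbx5) identical, with no shared run over 20 bases. Reads of one HP1 gene are therefore not shared with another at a word length of 50, but 8.67% of the 50-base words of Cbx3 occur in another annotated gene, 16 genes in all, among them Gm49164, Cbx3-ps6 and Cbx3-ps7, so Cbx3 is the least certain of the 3.

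No HP1 gene passed in Smchd1 KO against WT. The Smchd1 KO samples held 1153, 1174 and 1230.3 CPM of Cbx5, against 1108, 1104 and 1141 CPM in WT, a log2 difference of 0.08 (95% confidence interval -0.18 to 0.35, adjusted p = 0.765). Cbx1 held 312, 294 and 314 CPM in Smchd1 KO, against 361, 357 and 360.1 CPM in WT, a log2 difference of -0.23 (interval -0.54 to 0.08, adjusted p = 0.446). Cbx3 held 59.3, 43.6 and 62.0 CPM in Smchd1 KO, against 68.7, 68.8 and 71.2 CPM in WT, a log2 difference of -0.35 (interval -0.70 to -0.01, adjusted p = 0.300). Cbx5 was higher and the other 2 were lower in every Smchd1 KO sample, and none of the 3 passed. In limma's fit to these 2 genotypes alone Cbx1 passed at an adjusted p of 0.00369, among 42.3% of all genes.

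Dux KO cells held less of all 3 than WT cells in every sample, without passing the test. Cbx1 stood at 266, 213 and 266 CPM in Dux KO, against the 357 to 361 CPM of WT (log2 difference -0.54, adjusted p = 0.0573). Cbx3 stood at 42.5, 40.2 and 58.4 CPM, against 68.7 to 71.2 CPM in WT (log2 difference -0.58, adjusted p = 0.0626). Cbx5 stood at 863, 944 and 896 CPM, against 1104 to 1141 CPM in WT (log2 difference -0.31, adjusted p = 0.138). These HP1 genes and Trim28 were the 4 members whose Dux KO and WT samples did not overlap, where 39.6% of all genes did not overlap and 3.98% passed. By limma 0 of the 6 partners passed (4 at an unadjusted p under 0.05), by edgeR 0, and by DESeq2, which called 16.1% of all genes, the 3 HP1 genes (adjusted p = 0.0158 for Cbx1, 0.0188 for Cbx3 and 0.0446 for Cbx5). In limma 4205 of all 16200 genes had an unadjusted p under 0.05. Without the samples with a shifted autosome, which leaves 1 Dux KO sample, the 3 HP1 genes and Setdb1 passed, among 34.4% of all genes.

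No HP1 gene passed in Double KO against Dux KO either. The samples of Double KO and Dux KO overlapped for each: Cbx1 at 217 to 325 CPM against 213 to 266 CPM, Cbx3 at 50.7 to 55.4 CPM against 40.2 to 58.4 CPM, and Cbx5 at 911 to 1154 CPM against 863 to 944 CPM. The log2 differences were 0.07, 0.18 and 0.14, with intervals of -0.25 to 0.38, -0.17 to 0.53 and -0.12 to 0.41, and these bounds give the size of change that the data leave possible. Without the samples with a shifted autosome Cbx3 passed at 0.32 (adjusted p = 0.0408, among 21.1% of all genes), with 1 Dux KO sample left. Double KO and Smchd1 KO also overlapped for each HP1 gene, with log2 differences of -0.24, -0.05 and -0.26. Without Double KO replicate 3, the highest of its group for Cbx1 and Cbx5, these 2 passed at -0.40 (adjusted p = 0.038) and -0.36 (adjusted p = 0.0278). That fit called 15% of all genes, against 4.38% with all samples.

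In the Tet knockout background only Cbx3 of the HP1 genes passed. It stood at 51.0, 50.02 and 50.8 CPM in quad KO, against 57.1, 58.2 and 56.8 CPM in Tet TKO, with no overlap (log2 difference -0.18, SE 0.04, adjusted p = 0.0145). Without any one of the 3 Tet TKO replicates its adjusted p was 0.058 to 0.0808. Cbx1 overlapped (509 to 555 CPM against 531 to 547 CPM, log2 difference -0.02, interval -0.11 to 0.07). Cbx5 was 955 to 1046 CPM in quad KO, against 926 to 954 CPM in Tet TKO (log2 difference 0.07, interval -0.03 to 0.17, adjusted p = 0.263). These intervals are narrower than those of the first table.

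Cbx3 lies on chromosome 6, and in quad KO and in some samples of the first table, but not in others, the genes of this chromosome were lower too. In quad KO their median stood 0.21, 0.28 and 0.27 log2 below the Tet TKO mean in the 3 samples, where Cbx3 stood 0.17, 0.20 and 0.17 below. With the chromosome medians centred, the difference of Cbx3 was 0.08 with an adjusted p of 0.193, so its direction and its call did not hold. In the first table the chromosome 6 median was -0.46 in Smchd1 KO replicate 2, the sample with the lowest Cbx3 of that group (-0.67 from the WT mean), and -0.01 and 0.01 in the other 2 samples, where Cbx3 was -0.23 and -0.16. In Dux KO it was -0.23, -0.44 and -0.01, with Cbx3 at -0.70, -0.78 and -0.25. Double KO replicate 3 had a median of -0.49 with Cbx3 at -0.42, and replicates 1 and 2 had -0.10 and -0.03 with Cbx3 at -0.32 and -0.45. On the chromosomes of the other members the sample medians lay between -0.11 and 0.04 in the first table, and in the other between -0.03 and 0.09.

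**Figure D3:**
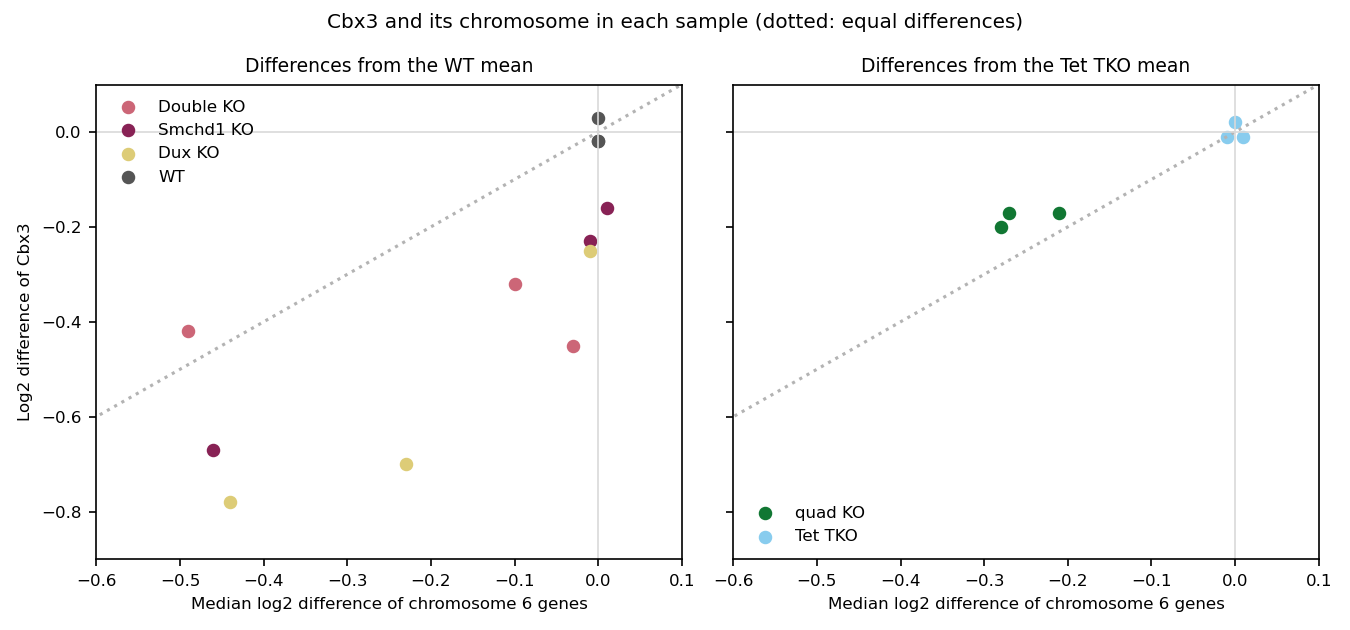
Log2 difference of Cbx3 (vertical axis) against the median log2 difference of all tested genes on chromosome 6 (horizontal axis) in each sample, from the WT mean on the left and from the Tet TKO mean on the right; the dotted line marks equal differences. The 3 quad KO samples lie just above the line, and Cbx3 lay 0.16 to 0.78 below WT in all 9 samples with a knockout in the first table.

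Within a library the 3 HP1 genes can be set in proportion, which does not depend on the scaling of the table. Per kilobase of exon, Cbx5 gave 62.0% ± 1.21 of the HP1 sum in Smchd1 KO and 56.5% ± 0.358 in WT, and Cbx1 gave 33.7% ± 0.727 in Smchd1 KO and 38.3% ± 0.405 in WT. Cbx3 gave 4.31% ± 0.677 in Smchd1 KO and 5.28% ± 0.0483 in WT. The Smchd1 KO and WT samples did not overlap for any of the 3 shares, and 57.7% of all genes did not overlap in level there. Double KO (61.3% ± 1.99 Cbx5) and Dux KO (60.3% ± 3.99 Cbx5) overlapped each other. Their Cbx5 shares also lay above WT, at 60.1% to 63.6% and 58% to 64.9% against 56.2% to 56.9%. Their Cbx1 shares lay below WT, at 31.2% to 35.7% and 30.9% to 37.7% against 37.8% to 38.6%. Their Cbx3 shares overlapped WT. In quad KO the shares were 45.2% ± 0.590 Cbx5, 51.3% ± 0.572 Cbx1 and 3.49% ± 0.156 Cbx3, against 43.5% ± 0.0581, 52.5% ± 0.0921 and 3.99% ± 0.0788 in Tet TKO. The sum of the 3 was 213 ± 7.13 CPM per kb in Smchd1 KO and 220 ± 2.73 CPM per kb in WT, and 166 ± 5.07 CPM per kb in Dux KO. These shares are descriptions and were not tested.

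**Figure D4:**
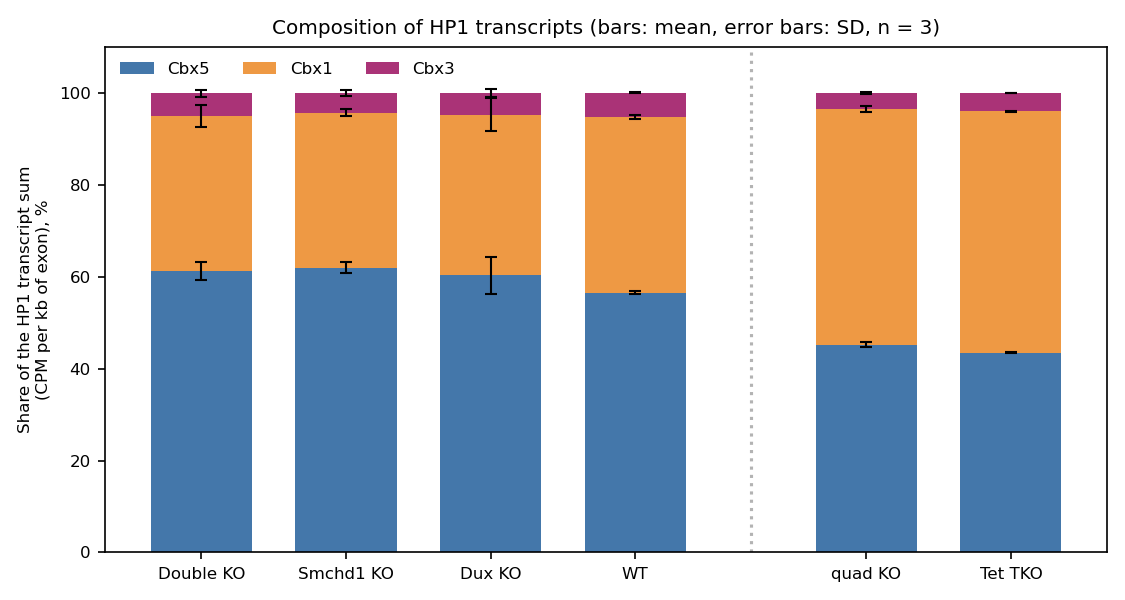
Share of Cbx5, Cbx1 and Cbx3 in the sum of the 3 HP1 genes, in percent of CPM per kb of exon, by genotype (bars show the mean and error bars the SD, n = 3; the dotted line parts the 2 tables). Cbx5 made up 62.0% in Smchd1 KO, 61.3% in Double KO, 60.3% in Dux KO and 56.5% in WT. The mean share of Cbx3 was 4.31% to 5.28% in the genotypes of the first table, and 3.49% in quad KO and 3.99% in Tet TKO.

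Setdb1, the H3K9 methyltransferase, passed in none of the comparisons as tested here. It held 124, 145 and 123 CPM in Smchd1 KO, against 151, 149 and 151 CPM in WT, a log2 difference of -0.21 (interval -0.53 to 0.12, adjusted p = 0.520). It held 171, 144 and 193 CPM in Double KO, against 202, 169 and 137 CPM in Dux KO, which overlap (log2 difference 0.0047, interval -0.32 to 0.33). Without the samples with a shifted autosome, which leaves 1 Dux KO sample, Setdb1 lay in the other direction at -0.37. Double KO stood 0.36 log2 above Smchd1 KO in Setdb1 (interval 0.04 to 0.69, limma, adjusted p = 0.155), and their samples overlapped. In quad KO it held 175, 181 and 186 CPM, against 168, 164 and 169 CPM in Tet TKO, with no overlap but an adjusted p of 0.0541 (log2 difference 0.11, interval 0.02 to 0.21). That value sits at the threshold: Setdb1 passed by edgeR (0.0411) and with a filter of 2 CPM (0.0499), where 38.3% and 40% of all genes passed. In Smchd1 KO against WT it passed in a fit to these 2 genotypes alone (adjusted p = 0.0409), among 42.3% of all genes. It also passed there when the shifted samples were left out (adjusted p = 0.0498), among 17.3% of all genes. Of its 50-base words 10.2% occur in another gene, the predicted gene Gm4349 first among them, and 4.73% of its exon bases lie opposite exons of Cers2 or Gm37500, so part of its reads is uncertain.

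Trim28, the corepressor, was the partner whose change held best, in the Tet knockout background. The quad KO samples held 1394, 1303 and 1482 CPM, against 1748, 1739.7 and 1729 CPM in Tet TKO, with no overlap. Trim28 fell 1.25-fold there (log2 difference -0.32, SE 0.05, adjusted p = 0.00179) and passed under each of the 14 alternatives, from -0.37 to -0.27 and with an adjusted p of at most 0.0138. Of all genes, 37.7% passed and 53.3% did not overlap in quad KO against Tet TKO. The 14 alternatives called 21.5% to 51.3% of all genes. Along with Trim28, 6 of the 8 ES cell markers fell, among them Nanog at 61.5, 65.0 and 30.8 CPM in quad KO, against 252, 276 and 268 CPM in Tet TKO, while Pou5f1 held 694, 707 and 718 CPM against 740.1, 736 and 733 CPM. The marker counts given here stand beside 20.6% of all genes that fell and 17.1% that rose. Fibroblast markers summed to 29.0 to 33.2 CPM in quad KO and 18.7 to 19.02 CPM in Tet TKO, with 3 of the 5 tested higher and none of the 8 at 0 in all samples of a group. Endoderm markers summed to 19.96 to 20.9 CPM in quad KO and 18.3 to 19.6 CPM in Tet TKO, with 2 of the 5 tested higher and 2 lower, and markers of 2-cell-like cells to 8.20 to 39.0 CPM and 32.1 to 33.2 CPM, with none of 6 past the threshold. In bulk RNA, fewer cells of a type and less RNA per cell cannot be told apart, and the part of these markers in the results on Trim28, Lrif1 and Cbx3 was not tested.

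In the first table Trim28 varied widely within the knockouts. It held 1006, 1200.2 and 940.2 CPM in Smchd1 KO, against 1426, 1349.95 and 1418 CPM in WT (log2 difference -0.42, interval -0.85 to 0.01, adjusted p = 0.312). It held 1277, 941 and 845 CPM in Dux KO, all below WT too (log2 difference -0.48, adjusted p = 0.157). The Double KO samples held 1122, 863 and 1424 CPM and overlapped those of Dux KO (log2 difference 0.15, interval -0.28 to 0.58). Smchd1 KO against WT passed without the samples with a shifted autosome, which leaves 2 Smchd1 KO samples (log2 difference -0.52, adjusted p = 0.0292, among 17.3% of all genes). Trim28 also passed in the fit to these 2 genotypes alone (adjusted p = 0.00851), among 42.3% of all genes.

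The counts over the 6 partners follow, where the comparisons of the first table share samples with one another. In Smchd1 KO against WT none of the 6 passed in limma (2 at an unadjusted p under 0.05, which were Lrif1 and Cbx3), 0 by edgeR and 1, Lrif1, by DESeq2 (adjusted p = 0.0143), which called 6.69% of all genes. Of all 16200 genes, 2660 had an unadjusted p under 0.05 in limma there. In that comparison all 7 members kept apart from WT, 6 below and Cbx5 above, but 57.7% of all genes did not overlap there, and the median log2 difference of the partners was -0.29 beside 0.0034 for all genes tested. In a fit to these 2 genotypes alone, 6852 genes (42.3%) and 4 partners passed (Lrif1, Cbx1, Setdb1 and Trim28), against 144 genes and none here. In Double KO against Dux KO none of the 6 passed in limma (1 at an unadjusted p under 0.05), edgeR or DESeq2, and only Smchd1 and Lrif1 kept apart, where 6.15% of all genes did. An unadjusted p under 0.05 in limma was found for 1583 of all 16200 genes in this comparison. There the partners' median was 0.14 beside -0.02 for all genes tested. In quad KO against Tet TKO 3 of the 6 passed (Trim28 and Cbx3 lower, Lrif1 higher), a share to be read beside the 37.7% of all genes, and 5 of the 6 did not overlap, where 53.3% of all genes did not. Their median was 0.02 beside -0.01 for all genes tested.

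The genes around these proteins were taken from 9 lists of 59 genes in all, all of them tested in the first table and 58 in the other. In Smchd1 KO against WT none passed in limma (16 at an unadjusted p under 0.05), none by edgeR and 5 by DESeq2. In Double KO against Dux KO none passed in limma (6 at an unadjusted p under 0.05), by edgeR or by DESeq2, and in Dux KO against WT none passed in limma (10 unadjusted), none by edgeR and 4 by DESeq2. Of all 16200 genes tested, 2660, 1583 and 4205 had an unadjusted p under 0.05 in limma in these comparisons, in this order. DESeq2 called 6.69%, 1.36% and 16.1% of all genes in them. In quad KO against Tet TKO 9 were higher and 13 lower, 37.9% of those tested, which is close to the 37.7% of all genes. Their median log2 difference was -0.00, beside -0.01 for all genes tested.

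Among the 6 other genes listed for the writing of H3K9 methylation, enzymes and the cofactor gene Wiz, 2 rose and 1 fell in quad KO. Suv39h1, which methylates pericentric heterochromatin, stood at 50.03 ± 5.37 CPM in quad KO and 30.7 ± 1.59 CPM in Tet TKO (log2 difference 0.69, adjusted p = 0.000786), and its relative Suv39h2 at 62.2 ± 4.67 CPM and 50.7 ± 0.849 CPM (0.29, adjusted p = 0.00906). Setdb2 fell (-0.25, adjusted p = 0.0195), a call lost without Tet TKO replicate 2 or 3. Of the 8 demethylases, Jmjd1c (0.25) and Kdm4c (0.18) rose, and Kdm3a (-0.73) and Phf8 (-0.22) fell. Kdm3a, which removes mono- and dimethylation of H3K9, stood at 104 ± 3.47 CPM in quad KO and 174 ± 5.96 CPM in Tet TKO (adjusted p = 5.94e-05). The calls of Jmjd1c, Kdm4c and Phf8 were lost without 1 or another Tet TKO replicate, and with chromosome medians centred Phf8, on the X chromosome, was at 0.01. Kdm3a, on chromosome 6, was then at -0.47 (adjusted p = 0.000139) and Suv39h1, on the X chromosome, at 0.92 (adjusted p = 0.000285).

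Of the 12 cofactors of SETDB1 and TRIM28, 1 rose and 4 fell in quad KO. Atf7ip, which binds and stabilises SETDB1, stood at 74.2 ± 6.72 CPM in quad KO and 102 ± 1.82 CPM in Tet TKO (log2 difference -0.47, adjusted p = 0.00155). Smarcad1, a remodeller that binds TRIM28, stood at 352 ± 5.69 CPM and 464 ± 5.78 CPM (-0.40, adjusted p = 0.000152). Both lie on chromosome 6, like Kdm3a, and with chromosome medians centred they were at -0.21 and -0.14 and still passed. Hdac2, a histone deacetylase, fell by 0.37 (adjusted p = 0.00365), and Zfp809, a KRAB zinc finger protein that recruits TRIM28 to proviral DNA, rose by 0.65 (35.2 to 61.4 CPM in quad KO, against 27.5 to 29.0 CPM in Tet TKO), a call lost without any one of the Tet TKO replicates. Of the 4 HUSH complex genes, Pphln1 rose (0.33, adjusted p = 0.0024) and Mphosph8 fell (-0.12, adjusted p = 0.0339), the second lost when Tet TKO replicate 1, 2 or 3 or quad KO replicate 1 was left out.

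Of the 9 proteins that bind HP1, Atrx (0.19) and Lbr (0.14) rose and Daxx (-0.34) and Zfp828 (-0.25) fell in quad KO. Daxx and ATRX together deposit histone H3.3 in heterochromatin, and Daxx stood at 88.8 ± 5.04 CPM in quad KO and 112 ± 3.62 CPM in Tet TKO (adjusted p = 0.00223). With chromosome medians centred Zfp828 was at -0.02 and Atrx, on the X chromosome, at 0.42 (adjusted p = 0.000111), and the call of Lbr was lost without any one of 5 of the 6 samples. Among the other 7 SMC genes, Smc1b, a cohesin subunit of meiotic cells, fell 6.76-fold (3.005 ± 1.05 CPM in quad KO and 22.5 ± 2.42 CPM in Tet TKO, adjusted p = 0.000153). Smc1a fell by 0.32 (adjusted p = 0.00129) and Smc4 by 0.20 (adjusted p = 0.00609), and Smc1a, on the X chromosome, was at -0.09 and no longer passed with chromosome medians centred. Of the 5 polycomb CBX genes Cbx7 rose by 0.12 (adjusted p = 0.0357), which was lost with chromosome medians centred and without any one of 4 samples. None of the 4 MORC genes tested and none of the 5 genes of PCGF3/5 PRC1 and Hnrnpk passed.

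In Double KO against Smchd1 KO 3 of the 59 genes passed, 5.08% beside 4.38% of all genes. Atrx stood at 513 ± 94.7 CPM in Double KO and 336 ± 26.2 CPM in Smchd1 KO (log2 difference 0.60, adjusted p = 0.0389). Smc1b stood at 18.1 to 80.8 CPM in Double KO and 106 to 125 CPM in Smchd1 KO (-1.65, adjusted p = 0.0392). Both calls were lost without any one of 4 of the 6 samples, which were the 3 of Smchd1 KO and Double KO replicate 1.

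**Figure D5:**
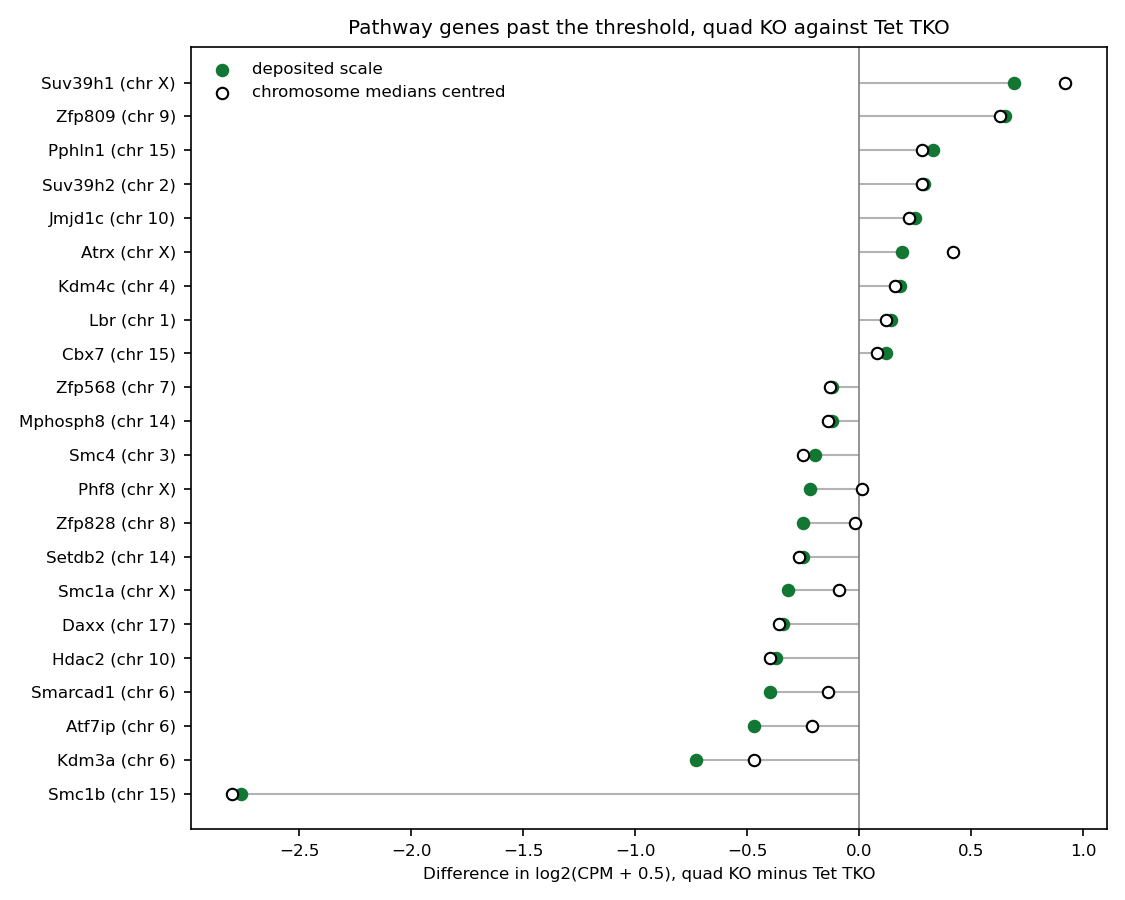
Log2 difference of the 22 list genes that passed in quad KO against Tet TKO, on the deposited scale (filled) and with the median of each chromosome centred (open), with the chromosome in brackets. Smc1b stands lowest at -2.76 and Suv39h1 highest at 0.69, and the open symbols of Phf8 and Zfp828 lie near 0.

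The genes most like Smchd1 over the 12 samples of the first table were A230051G13Rik (Pearson r 0.91), Zmiz2 (0.87), Nkx6-2 (0.86), Gm6020 (0.85) and Zfp850 (0.85), out of 16199 compared on the log2 scale. Over the 6 samples of the other table their r with Smchd1 was -0.03, 0.98, 0.86, 0.95 and 0.78. Zmiz2, the one of them with a high level, averaged 90.1 CPM in Double KO, 86.7 in Smchd1 KO, 100.1 in Dux KO and 105 in WT, and 90.2 in quad KO and 107 in Tet TKO. For Trim28 they were Dbr1 (0.98), Nle1 (0.98), Snf8 (0.97), Atf5 (0.97) and Rexo2 (0.97), with r of -0.82, 0.07, 0.77, 0.91 and -0.50 in the other table. The samples fall into genotypes and share the shifts described above, so these are descriptions of likeness. The r of Smchd1 with the 6 partners ran from -0.33 (Cbx5) to 0.34 (Setdb1) over the 12 samples, and from -0.76 (Setdb1) to 1.00 (Trim28) over the 6 samples of the other table, which are of 2 genotypes. The highest r between partners was 0.74 over the 12 samples (Cbx1 and Cbx5) and 0.96 over the 6 (Cbx3 and Trim28), and the lowest were -0.53 (Lrif1 and Cbx5) and -0.91 (Cbx3 and Setdb1).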

How the data were processed

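Mouse ES cell RNA was sequenced in 24 libraries of 18 biological samples. Per the submitters' processing notes, reads were trimmed with Trim Galore and aligned to mm9 with STAR 2.5.1, and limma 3.38.2 was used; the read counter is not given in the sources used here. The deposited values are a signal per gene, which the authors scaled as CPM of an effective library size, and all values under 200 reads came back as whole reads within 0.1 read. Beside the 6 columns of quad KO and Tet TKO, 3 columns of their table were not used, so Tet TKO and quad KO were not compared with WT.

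Technical runs (2 per WT and Smchd1 KO sample) were averaged. Smchd1 KO columns are numbered 1 to 6, which the labels do not link to the sample and run numbers of the titles, so they were joined into samples by their likeness and the numbers of the joined samples are names alone, with a noise ratio of 1.40 to 1.77 against 3.56 to 16.3 between other pairs. Genes with at least 0.5 CPM in 3 samples were tested with limma 3.58.1 (R 4.3.3, trend) on log2(CPM + 0.5), with all genotypes of a table in 1 fit, two-sided, and fold changes are on that scale, which understates changes of low genes. The test was checked on simulated data in which all groups had the same spread. The groups here differ in spread, so that check does not cover this. Exon lengths, overlaps and shared 50-base words came from GENCODE (release 21), which is of another build than the files, so none of its coordinates were used for the measurements; HP1 coding sequences were aligned with mafft 7.526.

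The members and lists were chosen with earlier results of these data known. Of the list genes, Atf7ip and Jmjd1c had 2 entries each, as did the endoderm marker Dab2. A single entry of each was used, and the values of the other are not given. Named beside the members are list genes past the threshold (the 4 largest where more passed) and the 5 genes most like Smchd1 and Trim28. The values of 1 list gene that passed are not reported here. Alternatives were a pseudocount of 2, no filter or one of 2 CPM, quantile normalization, edgeR 4.0.16 and DESeq2 1.42.0 on the recovered counts, centred chromosome medians, a replicate block, 2 genotypes alone, single runs, leaving out each replicate, and, chosen after seeing the data, leaving out the 4 samples with a shifted autosome.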

Additional observations from a re-analysis of the deposited data

Results flagged for a closer look

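In 5 cases a difference went one way in every sample of one background and the other way in every sample of another. A sample's value here is its distance from the mean of the genotype it is set against, so the spread of that genotype does not enter. The share of all genes that meet this rule was not counted. Of all genes, 57.7% did not overlap in Smchd1 KO against WT, 6.15% in Double KO against Dux KO and 53.3% in quad KO against Tet TKO. For Lrif1, the log2 difference was -0.48 in Smchd1 KO against WT (samples -0.59 to -0.37) and 0.38 in Double KO against Dux KO (samples 0.19 to 0.49), and the difference between them had an adjusted p of 0.0752 in limma. For Cbx3 the same 2 comparisons gave -0.35 (samples -0.67 to -0.16) and 0.18 (samples 0.13 to 0.25), with 0.53 and an adjusted p of 0.252 for the difference in limma. Double KO (50.7 to 55.4 CPM) and Dux KO (40.2 to 58.4 CPM) overlapped in Cbx3. The difference ranged from 0.35, with chromosome medians centred, to 0.70, without Dux KO replicate 3. It was 0.51 without the samples with a shifted chromosome, which leaves 1 Dux KO sample. The lowest sample, Smchd1 KO replicate 2 at -0.67, had a chromosome 6 median of -0.46, and its part in the result was not tested.

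The other 3 are between tables, so the difference itself was not tested. Lrif1 was at -0.48 in Smchd1 KO against WT and 0.37 in quad KO against Tet TKO (samples 0.27 to 0.54). Setdb1 was at -0.21 (samples -0.29 to -0.05) and 0.11 (samples 0.07 to 0.16) in these 2 comparisons. Cbx3 was at 0.18 in Double KO against Dux KO and -0.18 in quad KO against Tet TKO (samples -0.20 to -0.17).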

How the results depend on the processing

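Of 714 values of the members under alternatives, 646 kept their direction and side of the threshold, 36 passed newly, 10 no longer passed and 22 changed direction. The cause was not tested for any of them. Genes past the threshold in Smchd1 KO against WT were 144, and 71 with a 2 CPM filter, 230 by edgeR, 1084 by DESeq2, 6852 in a fit to the 2 genotypes alone, 37 to 56 without 1 replicate and 2714 without the shifted samples; partners past it were 1 by DESeq2, 4 in the fit to 2 genotypes and 3 without the shifted samples. In Double KO against Dux KO they were 2, and 12 with no filter, 220 by DESeq2, 4 with centred chromosomes, 0 in the fit to 2 genotypes (where Smchd1 was at -1.28), 0 to 146 without 1 replicate (Smchd1 -1.36 to -1.21) and 3307 without the shifted samples, with 2 partners. There Setdb1 was at -0.01 with centred chromosomes, and without the shifted samples Setdb1, Cbx1 and Trim28 were at -0.37, -0.20 and -0.38; without 1 replicate they ranged from -0.14 to 0.14, -0.09 to 0.20 and -0.03 to 0.33. In quad KO against Tet TKO they were 5619, and 3329 to 7520 without 1 replicate, with 1 to 4 partners. There Cbx1 was at 0.02 after quantile normalization and -0.05 to 0.01 without 1 replicate, and with centred chromosomes Cbx3 was at 0.08 and Phf8 at 0.01.

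In Dux KO against WT they were 644, and 338 with no filter, 344 after quantile normalization (Smchd1 at 0.03), 2606 by DESeq2, 2 to 2797 without 1 replicate and 5394 without the shifted samples; partners were 3 by DESeq2, 1 in the fit to 2 genotypes (819 genes), 2 with WT run 1 alone (925 genes), 0 to 2 without 1 replicate and 4 without the shifted samples. In Double KO against Smchd1 KO they were 709, and 2456 by DESeq2, 121 in the fit to 2 genotypes, 50 to 2422 without 1 replicate (0 to 3 partners, Cbx3 -0.20 to 0.05, Trim28 -0.08 to 0.28) and 5671 without the shifted samples (4 partners); Cbx3 was at 2.1e-03 after quantile normalization. For the interaction they were 83, and 11 with a 2 CPM filter, 7 by edgeR, 948 by DESeq2 (1 partner), 0 to 1216 without 1 replicate (0 to 1 partner, Cbx5 -0.05 to 0.12) and 1634 without the shifted samples (1 partner); Cbx5 was at -0.07 after quantile normalization, and without the shifted samples Cbx1 was at -3.4e-04 and Setdb1 at -0.08.

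No paired analysis was possible for Smchd1 KO or the interaction because the numbers of the Smchd1 KO columns are not linked to replicate numbers. Elsewhere deviations from the group mean were correlated between samples of the same number (0.0311 to 0.169 for Dux KO and WT, -0.135 to 0.469 for Double KO and Dux KO, -0.0299 to 0.0166 for quad KO and Tet TKO). Samples of different numbers were not compared in this way, so these values do not settle whether the numbers pair the samples. With a replicate block 32 genes passed in Dux KO against WT, 2 in Double KO against Dux KO and 4913 in quad KO against Tet TKO, and no member's call changed.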
